A study of Homo sapiens with 6 samples.

Results

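Hypoxia-responsive genes are genes that rise in many human cells when oxygen is low, together with the factors that control them. The set described here was defined by name and comprised 32 genes of the 46427 listed in the expression table. These were HIF1A and EPAS1, which encode oxygen-labile alpha subunits of the hypoxia-inducible factors (HIF), and 30 genes known as their targets. All 32 were found and all 32 passed the filter on low counts, as did 17990 genes in all. The rule used gene names and no measured value, although the names were chosen with earlier results of these data known.

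RNA was sequenced from VK2/E6E7 cells, a human vaginal epithelial line immortalised with papillomavirus E6 and E7 genes and labelled WT, in 2 groups of 3 biological replicates. The HMU group received the lactic acid bacterium Lactobacillus salivarius HHuMin-U at 1e8 CFU/mL for 6 h, and the PBS group received PBS for the same time. Both groups share the line, its serum-free keratinocyte medium and the E6 and E7 genes, and E6/E7 cells of 1 line stand in for vaginal epithelium. The medium held antibiotics in both groups, the labels name no oxygen level, and no hypoxic control is among the samples.

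In oxygenated cells, prolyl hydroxylases of the EGLN family mark the HIF alpha subunits, and the VHL ubiquitin ligase then sends them for degradation. When oxygen is scarce the marked form is lost, the alpha subunit pairs with ARNT, and the dimer binds a short core sequence near its target genes, whose products raise glycolysis, restrain mitochondrial respiration, remodel collagen and call for blood vessels. Control of HIF1A and EPAS1 is thus largely at the protein, which was not measured here, and several targets also answer to other stress and inflammatory signals.

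Library totals ran from 64370749 to 65957584 counts in HMU and from 64292566 to 65593367 in PBS. All 10 squamous epithelial markers were detected with at least 10 counts in a library, and their summed level was 74051 to 92412 CPM in HMU and 73182 to 74046 CPM in PBS (CPM: counts per 1000000 after TMM scaling). Fibroblast markers summed to 93.0 to 105 CPM in HMU and 120 to 124 CPM in PBS, leukocyte markers to 121 to 137 CPM in HMU and 58.3 to 60.7 CPM in PBS, and endothelial markers to 2.52 to 3.31 CPM in HMU and 0.740 to 0.862 CPM in PBS. TYROBP, which marks leukocytes, and EMCN, an endothelial marker, had 0 counts in all 6 libraries, and the part of these markers in the results below was not tested. HMU replicate 2 stood apart from the other HMU libraries on a principal component that held 10.8% of the variance. It gave the lowest HMU value for 22 of the 32 members and for 43.0% of all tested genes. In bulk RNA, fewer cells of a kind and less RNA per cell cannot be told apart.

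The comparison of HMU with PBS shows how transcripts of this set stood after contact with the bacterium. The set did not move one way. ANGPTL4, NDRG1 and ADM rose 9.28-fold, 4.21-fold and 3.10-fold, while STC2, EGLN3 and ZNF395 fell to levels 8.35-fold, 5.31-fold and 2.11-fold below those in PBS. Of the 32 members 5 rose and 14 fell by edgeR's quasi-likelihood test at a Benjamini-Hochberg adjusted p under 0.05, and 13 were not called. That is 15.6% higher and 43.8% lower, beside 25.0% higher and 25.3% lower among all 17990 genes tested. The 3 HMU values lay all above the PBS values for 5 members and all below for 16, or 65.6% together, beside 62.3% of all tested genes. The median log2 fold change was -0.25 over the members and -0.0030 over all tested genes. Without HMU replicate 2, 8 members were higher and 14 lower, beside 5459 higher and 5487 lower of all 18485 genes tested. Without HMU replicate 1, 3 members were higher, beside 3687 of 18441 genes tested. Without PBS replicate 3, 3 were also higher, beside 3395 of 18336 genes tested.

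**Figure D1:**
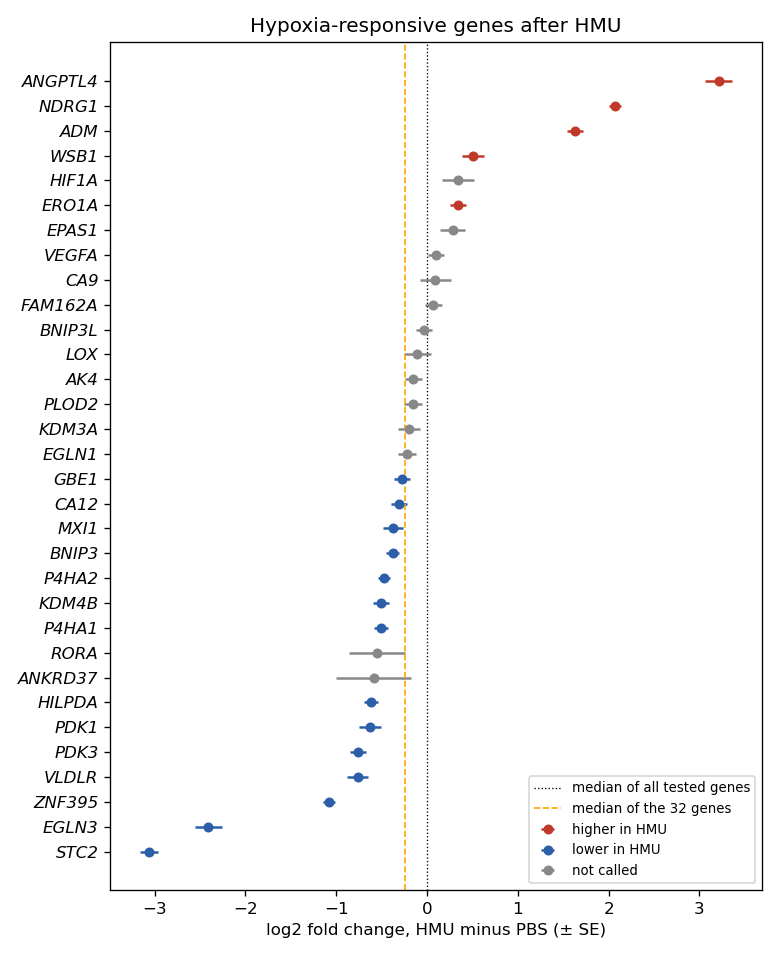
Log2 fold change of each of the 32 genes (x axis, HMU minus PBS, with its standard error as a bar) from edgeR, ordered by size down the y axis and coloured by call. ANGPTL4 at 3.21 and STC2 at -3.06 mark the ends, most members lie between -1 and 1, and the dashed line at -0.25 gives the median of the set beside the dotted line at -0.0030 for all tested genes.

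The balance of calls depended on scaling, and TMM factors were 0.893 to 0.920 in HMU and 1.0996 to 1.107 in PBS. With library sizes only, the median of all tested genes moved to -0.28 and that of the members to -0.53. This rescaling shifts every gene by nearly the same amount, so it cannot test the distance between the 2 medians. On that scale 3 members were higher (ANGPTL4, NDRG1 and ADM) and 19 lower, beside 2442 higher and 7942 lower of all tested genes. In all 18 alternative settings the same 14 of the 19 called members were called the same way. These were ANGPTL4, NDRG1 and ADM among the higher, and STC2, EGLN3, ZNF395, VLDLR, PDK3, PDK1, HILPDA, P4HA1, P4HA2, KDM4B and BNIP3 among the lower.

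**Figure D2:**
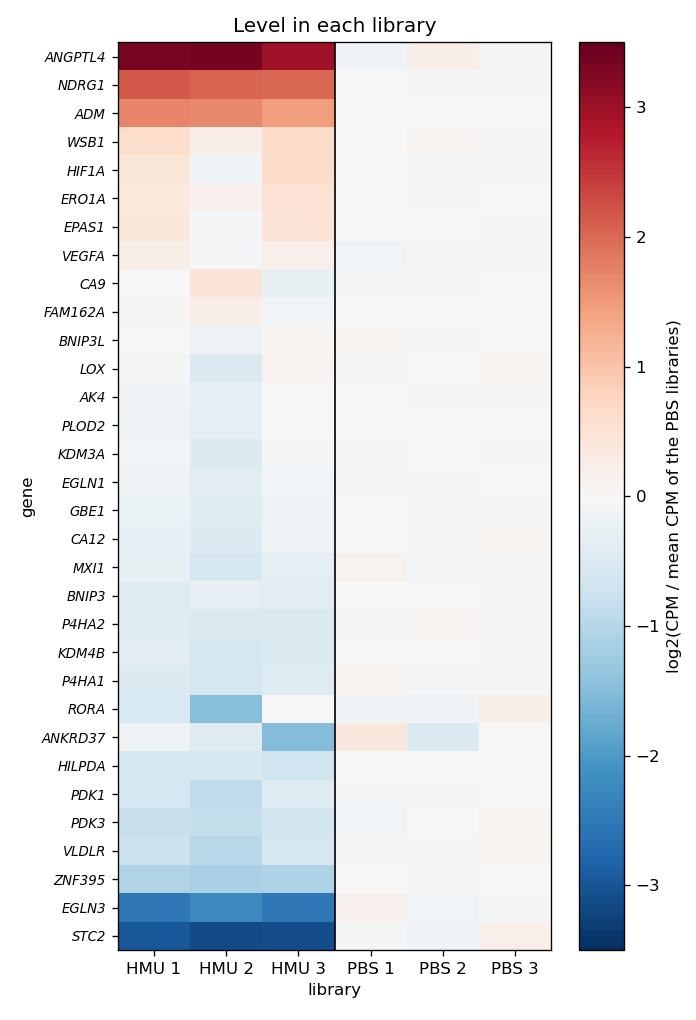
Level of each member in each library as log2 of its CPM over the mean CPM of the PBS libraries (colour scale), with HMU libraries to the left of the line and members ordered by log2 fold change. ANGPTL4, NDRG1 and ADM are above and STC2, EGLN3 and ZNF395 below PBS in all 3 HMU libraries, and HMU replicate 2 is the lowest of the 3 HMU columns for HIF1A, EPAS1, LOX and RORA.

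Among the regulators, EGLN3 fell and HIF1A, EPAS1 and EGLN1 were not called. HIF1A, on chromosome 14 from 61695513 to 61748258 (RefSeq, GRCh38.p14), had 519, 348 and 604 CPM in HMU replicates 1 to 3, against 386, 374 and 402 CPM in PBS replicates 1 to 3. HMU replicates 1 and 3 lay above every PBS library and HMU replicate 2 below them all, so the groups overlapped (log2 fold change 0.34 ± 0.18 SE, edgeR adjusted p = 0.145). EPAS1, on chromosome 2 from 46297407 to 46386697, showed the same order, with 366, 266 and 391 CPM in HMU libraries, against 280, 276 and 286 CPM in PBS libraries (log2 fold change 0.28 ± 0.13 SE, edgeR adjusted p = 0.116). Without HMU replicate 2 both were called higher, with log2 fold changes of 0.54 for HIF1A and 0.44 for EPAS1 (edgeR adjusted p = 3.25e-05 and 1.16e-05). For both of these alpha subunits the call thus changed with that library.

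EGLN3, a prolyl hydroxylase whose own transcript is a HIF target, was at 0.658, 0.801 and 0.660 CPM in HMU libraries, against 4.17, 3.52 and 3.58 CPM in PBS libraries. The groups were far apart, with a log2 fold change of -2.41 ± 0.15 SE (edgeR adjusted p = 1.30e-05). EGLN3 lies on chromosome 14 from 33924227 to 33951074. EGLN1, the hydroxylase regarded as the main oxygen sensor, had 12.3, 10.6 and 13.2 CPM in HMU libraries, against 14.5, 13.3 and 14.2 CPM in PBS libraries. Its HMU values were all lower but close to the PBS values (-0.22 ± 0.10 SE as log2 fold change, with an edgeR adjusted p of 0.106), and it was called lower with library sizes only (edgeR adjusted p = 0.00506) and without HMU replicate 3 (edgeR adjusted p = 0.0433). Whether EGLN3 and EGLN1 changed by different amounts was not tested.

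**Figure D3:**
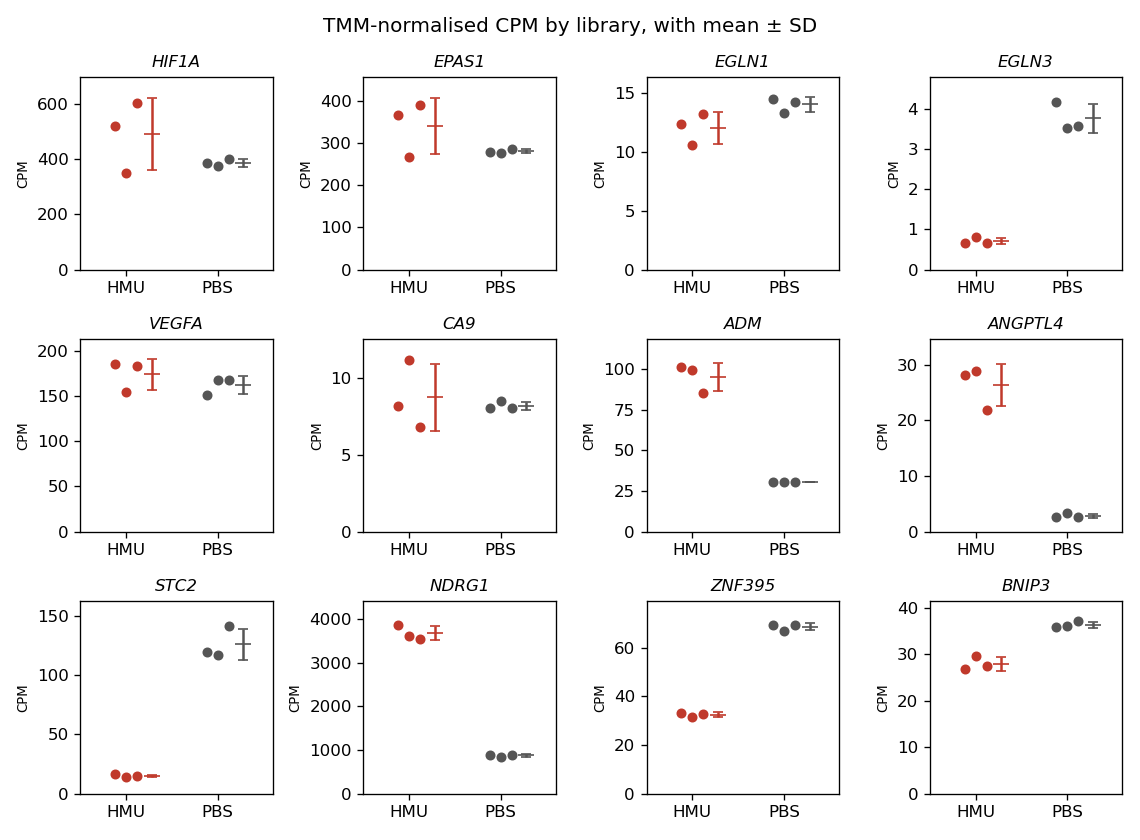
TMM-normalised CPM (y axes, each from 0) of 12 members in each HMU (red) and PBS (grey) library, with the mean and SD of the 3 libraries beside the points. HMU and PBS points are separate for EGLN1, EGLN3, ADM, ANGPTL4, STC2, NDRG1, ZNF395 and BNIP3 and overlap for HIF1A, EPAS1, VEGFA and CA9.

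Of the members that encode secreted signals, ANGPTL4 and ADM rose, STC2 fell and VEGFA was not called. ANGPTL4, an inhibitor of lipoprotein lipase (chromosome 19 from 8364155 to 8374370), had 28.2, 28.8 and 21.95 CPM in HMU libraries, against 2.54, 3.27 and 2.69 CPM in PBS libraries. No HMU library came near the PBS range (log2 fold change 3.21 ± 0.15 SE, edgeR adjusted p = 3.06e-06). ADM, which encodes the vasodilator peptide adrenomedullin (chromosome 11 from 10305073 to 10307397), had 101, 99.5 and 85.1 CPM in HMU libraries, against 30.8, 30.8 and 30.7 CPM in PBS libraries. The PBS libraries were nearly alike and the HMU libraries all well above them (log2 fold change 1.63 ± 0.084 SE, edgeR adjusted p = 5.07e-06).

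STC2, a stanniocalcin that is also known as a target of the amino acid stress factor ATF4, lies on chromosome 5 from 173314723 to 173328414. It had 16.2, 14.3 and 14.7 CPM in HMU libraries, against 120, 117 and 141 CPM in PBS libraries. This was the largest fall among the members (log2 fold change -3.06 ± 0.10 SE, edgeR adjusted p = 6.72e-07). VEGFA, the endothelial growth factor and a classical HIF target (chromosome 6 from 43770211 to 43786487), had 186, 154 and 183 CPM in HMU libraries, against 151, 168 and 168 CPM in PBS libraries. The groups overlapped (0.10 ± 0.091 SE as log2 fold change, with an edgeR adjusted p of 0.382), and without HMU replicate 2 VEGFA was called higher at a log2 fold change of 0.18 (edgeR adjusted p = 0.0116). Its sign turned with library sizes only, at -0.18, and on the TPM and FPKM scales.

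The HIF dimer is known to bind the core ACGTG or GCGTG, read on either strand, and promoter windows of RefSeq (GRCh38.p14, 250 bases before to 50 after each start) were searched for it. The windows of 5 members are shown because they belong to the largest rises and falls with a window, ANGPTL4, ADM, STC2 and EGLN3, and to CA9, a target widely used as a hypoxia marker. Capitals mark the core on either strand, so that ACGTG on the other strand appears as CACGT and GCGTG as CACGC, and all are written 5′ to 3′ on the gene's strand.
ANGPTL4, chr19:8363905-8364204, plus strand: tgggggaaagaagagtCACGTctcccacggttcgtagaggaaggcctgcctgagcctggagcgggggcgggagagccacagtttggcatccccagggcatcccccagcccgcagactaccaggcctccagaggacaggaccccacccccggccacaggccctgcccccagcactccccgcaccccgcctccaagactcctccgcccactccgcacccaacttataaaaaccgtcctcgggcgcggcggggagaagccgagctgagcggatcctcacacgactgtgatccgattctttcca
ADM, chr11:10304823-10305122, plus strand: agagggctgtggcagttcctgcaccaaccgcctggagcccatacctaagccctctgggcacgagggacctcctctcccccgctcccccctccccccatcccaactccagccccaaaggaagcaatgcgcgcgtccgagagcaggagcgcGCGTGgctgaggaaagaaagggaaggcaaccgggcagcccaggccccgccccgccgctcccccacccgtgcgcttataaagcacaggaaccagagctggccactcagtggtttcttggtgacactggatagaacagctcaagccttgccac
STC2, chr5:173328365-173328664, minus strand: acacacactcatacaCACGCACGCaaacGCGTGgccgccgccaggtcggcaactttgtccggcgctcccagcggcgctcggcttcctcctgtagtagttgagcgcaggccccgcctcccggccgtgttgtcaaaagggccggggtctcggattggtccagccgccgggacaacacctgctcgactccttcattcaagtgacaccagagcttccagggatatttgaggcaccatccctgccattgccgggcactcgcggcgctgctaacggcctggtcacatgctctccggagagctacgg
EGLN3, chr14:33951025-33951324, minus strand: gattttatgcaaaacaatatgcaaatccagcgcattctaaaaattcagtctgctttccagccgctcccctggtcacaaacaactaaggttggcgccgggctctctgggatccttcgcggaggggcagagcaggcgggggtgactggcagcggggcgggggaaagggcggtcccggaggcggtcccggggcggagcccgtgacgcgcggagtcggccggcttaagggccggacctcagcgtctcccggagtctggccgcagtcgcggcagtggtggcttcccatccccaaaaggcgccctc
CA9, chr9:35673678-35673977, plus strand: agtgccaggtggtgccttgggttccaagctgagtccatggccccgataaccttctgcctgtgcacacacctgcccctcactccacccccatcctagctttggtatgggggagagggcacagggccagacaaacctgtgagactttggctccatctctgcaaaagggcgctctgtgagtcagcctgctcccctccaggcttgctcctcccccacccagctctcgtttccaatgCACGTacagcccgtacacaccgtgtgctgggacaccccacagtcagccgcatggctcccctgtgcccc

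The ANGPTL4 and CA9 windows held 1 match each to ACGTG, the ADM window 1 match to GCGTG, the STC2 window 3 matches to GCGTG, and the EGLN3 window none. The core thus stood in windows of genes that rose, fell and were not called. Of 27 members with a window, 24 had the core in at least 1 window (88.9%), as did 67.5% of 12925 tested genes with a window. ACGTG itself was found for 17 members (63.0%) and for 31% of tested genes. Of all 35116 promoter windows, 48.4% held the core and 21.4% held ACGTG. The members' windows were also richer in G and C, with a median of 69.0% beside 64% for windows of tested genes, and the core holds a CpG. By call, the core was found for 4 of 4 higher, 10 of 12 lower and 10 of 11 uncalled members. The letters CACGTG, known as an E-box, count here as 2 matches. VEGFA, NDRG1, HILPDA, BNIP3L and ZNF395 were not searched.

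NDRG1 was the most abundant member per length in both groups and is a cytoplasmic protein induced by several stresses and in differentiating epithelium (chromosome 8 from 133237175 to 133297252). It had 3864, 3617 and 3554 CPM in HMU libraries, against 884, 843 and 896 CPM in PBS libraries. Each HMU library held about as much as the next and none approached PBS (log2 fold change 2.07 ± 0.068 SE, edgeR adjusted p = 6.45e-07). On the deposited TPM scale, which is per length, NDRG1 averaged 2165 ± 182 TPM in HMU and 678 ± 22.6 TPM in PBS (SD, n = 3 each). It made up 69.3% ± 2.25 of the summed TPM of the 32 genes in HMU and 36.9% ± 0.556 in PBS. The summed TPM of the set was 3128 ± 335 in HMU and 1840 ± 50.4 in PBS. Leaving out NDRG1 turned the order, to 963 ± 163 TPM in HMU and 1162 ± 31.6 TPM in PBS, on a scale on which the median of all tested genes also moved down, by 0.27 on log2(TPM + 1).

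**Figure D4:**
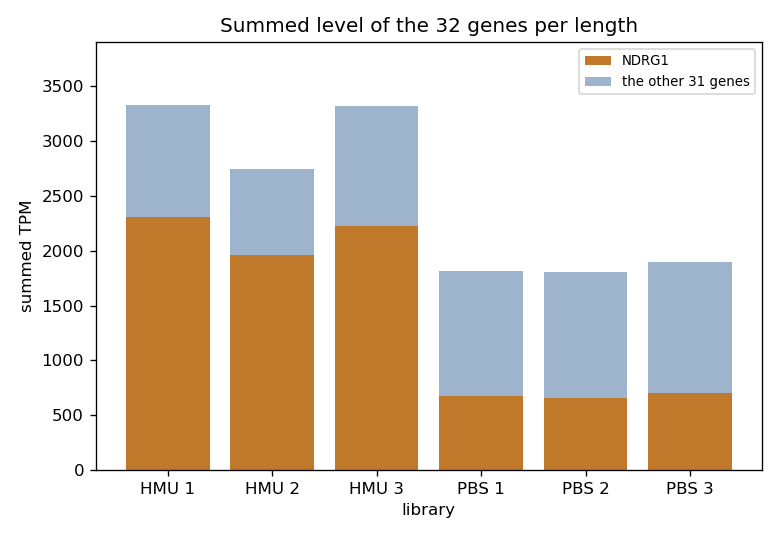
Summed deposited TPM (y axis) of the 32 genes in each library (x axis), split into NDRG1 and the other 31 genes. NDRG1 holds 67.0 to 71.5% of each HMU bar and 36.3 to 37.4% of each PBS bar, while the part of the other genes is lower in all 3 HMU libraries.

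Below NDRG1 in TPM, HIF1A averaged 225 ± 73.7 in HMU and 231 ± 9.35 in PBS, and EPAS1 119 ± 30.9 in HMU and 128 ± 3.17 in PBS, so that they held rank 2 and rank 3 of the members in both groups. On this scale their HMU means were below their PBS means, unlike on the TMM scale, and limma on log2(TPM + 1) called neither. In HMU, ADM followed at rank 4 with 114 ± 8.11 TPM, within the spread of EPAS1, and stood at rank 9 in PBS with 48.5 ± 0.364 TPM. VEGFA was next to ADM in HMU at 89.0 ± 14.7 TPM and above it in PBS at 110 ± 7.38 TPM. STC2 took rank 23 in HMU at 5.04 ± 0.563 TPM and rank 7 in PBS at 55.5 ± 6.25 TPM. ANGPTL4 took rank 12 in HMU at 25.0 ± 2.59 TPM and rank 28 in PBS at 3.58 ± 0.530 TPM. The lowest members in both groups were ANKRD37, an ankyrin repeat protein, and RORA, a nuclear receptor.

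The carbonic anhydrases CA9 and CA12 sit on the cell surface, where they hydrate CO2 and so take part in handling acid. CA9 had 8.18, 11.1 and 6.83 CPM in HMU libraries, against 8.01, 8.47 and 8.03 CPM in PBS libraries. HMU replicate 2 was the highest and HMU replicate 3 the lowest of all 6, and the groups overlapped (0.092 ± 0.17 SE as log2 fold change, with an edgeR adjusted p of 0.673). The sign of CA9 turned without HMU replicate 2, with library sizes only and on the TPM and FPKM scales. CA12 fell to 134 ± 13.5 CPM in HMU, against 165 ± 8.04 CPM in PBS (log2 fold change -0.30 ± 0.088 SE, edgeR adjusted p = 0.0225). That call ended without HMU replicate 1, PBS replicate 1 or PBS replicate 3 (edgeR adjusted p = 0.0626, 0.0749 and 0.0930).

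Of 8 members that act on mitochondria, fuel use or storage, 5 fell and the other 3 were not called, beside 25.3% lower among all tested genes, and the median log2 fold change was -0.33. Both pyruvate dehydrogenase kinases, which keep pyruvate out of the citric acid cycle, were among them. PDK1 had 13.9, 11.4 and 15.5 CPM in HMU libraries, against 19.9, 21.8 and 21.4 CPM in PBS libraries, and PDK3 had 11.9, 11.7 and 13.4 CPM in HMU libraries, against 19.6, 20.7 and 22.3 CPM in PBS libraries. Both pairs of groups were separate (log2 fold changes -0.63 ± 0.12 and -0.76 ± 0.089 SE, edgeR adjusted p = 0.00341 and 0.000332).

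HILPDA, a lipid droplet protein, had 10.7, 11.1 and 9.98 CPM in HMU libraries, against 16.2, 16.4 and 16.3 CPM in PBS libraries (log2 fold change -0.62 ± 0.078 SE, edgeR adjusted p = 0.000468). BNIP3, a receptor for removal of mitochondria, fell to 27.9 ± 1.53 CPM in HMU, against 36.3 ± 0.683 CPM in PBS (log2 fold change -0.38 ± 0.071 SE, edgeR adjusted p = 0.00336). Its locus overlaps PPP2R2D, which held 15255 counts over the 6 libraries, against 12725 for BNIP3, and whether strand was used in counting is not stated, so the pair could share reads. The same holds for LOX with SRFBP1, FAM162A with WDR5B and EGLN1 with LOC107985360, whose counts came to 23.4%, 9.54% and 11.9% of those of LOX, FAM162A and EGLN1. BNIP3L, a relative of BNIP3, had 32.2 ± 2.74 CPM in HMU and 33.0 ± 1.33 CPM in PBS and was not called (log2 fold change -0.034 ± 0.085 SE). BNIP3L was called lower with library sizes only (edgeR adjusted p = 0.0185) and on log2(TPM + 1) (limma adjusted p = 0.0169). GBE1, the glycogen branching enzyme, fell to 12.8 ± 1.07 CPM in HMU, against 15.5 ± 0.371 CPM in PBS (edgeR adjusted p = 0.0335), a call that ended without HMU replicate 1 or any PBS library (edgeR adjusted p = 0.0802 to 0.115).

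FAM162A, a mitochondrial protein linked to cell death, had 64.1 ± 7.86 CPM in HMU and 61.1 ± 0.416 CPM in PBS, and AK4, a mitochondrial adenylate kinase, had 63.0 ± 6.89 CPM in HMU and 69.9 ± 2.16 CPM in PBS. Neither was called (edgeR adjusted p = 0.565 and 0.198). AK4 was called lower with library sizes only (edgeR adjusted p = 0.00654) and on log2(TPM + 1) (limma adjusted p = 0.00903). Reads of AK4 may be shared with the listed copies AK4P1 and AK4P3, whose counts came to 6.95% and 7.72% of its own. The direction of FAM162A depended on the scale and on HMU replicate 2, and on log2(TPM + 1) it was lower by limma (log2 fold change -0.33, adjusted p = 0.00314).

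Members that modify collagen or fold secreted proteins were split, with 2 of 5 lower and 1 higher, beside 25.3% and 25.0% of all tested genes. P4HA1 and P4HA2, the catalytic subunits of collagen prolyl hydroxylases, both fell. P4HA1 had 21.5, 19.6 and 21.8 CPM in HMU libraries, against 31.7, 28.8 and 28.9 CPM in PBS libraries (log2 fold change -0.51 ± 0.080 SE, edgeR adjusted p = 0.00141). P4HA2 had 101, 95.1 and 94.3 CPM in HMU libraries, against 131, 142 and 130 CPM in PBS libraries (log2 fold change -0.48 ± 0.067 SE, edgeR adjusted p = 0.000817). For both genes every HMU library was below every PBS library. ERO1A, the oxidase that drives disulphide formation in the endoplasmic reticulum, rose to 120 ± 14.4 CPM in HMU, against 95.1 ± 2.06 CPM in PBS (log2 fold change 0.34 ± 0.093 SE, edgeR adjusted p = 0.0177). Its rise was lost with library sizes only (log2 fold change 0.062) and without HMU replicate 1 or any PBS library (edgeR adjusted p = 0.0607 to 0.0738), and its sign turned on log2(TPM + 1). PLOD2, a lysyl hydroxylase, and LOX, lysyl oxidase, which crosslinks collagen, were at 34.4 ± 4.30 and 47.8 ± 10.2 CPM in HMU and at 38.3 ± 0.592 and 51.4 ± 2.13 CPM in PBS, and neither was called. PLOD2 was called lower without HMU replicate 3 (edgeR adjusted p = 0.0316), with library sizes only (edgeR adjusted p = 0.0086) and on log2(TPM + 1) (limma adjusted p = 0.00885).

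Of 5 regulators of transcription and chromatin, 3 fell and 2 were not called, beside 25.3% lower among all tested genes. ZNF395, a zinc finger factor, had 33.3, 31.5 and 32.6 CPM in HMU libraries, against 69.3, 66.9 and 69.4 CPM in PBS libraries. Replicates of each group were nearly alike (-1.08 ± 0.064 SE as log2 fold change, with an edgeR adjusted p of 9.98e-06). The histone demethylase gene KDM4B fell to 8.11 ± 0.551 CPM in HMU, against 11.5 ± 0.364 CPM in PBS (edgeR adjusted p = 0.00223). MXI1, an antagonist of MYC, fell to 9.18 ± 1.12 CPM in HMU, against 11.9 ± 0.848 CPM in PBS (edgeR adjusted p = 0.0263), but was not called without PBS replicate 1, 2 or 3 (edgeR adjusted p = 0.104, 0.0577 and 0.0611). KDM3A, another histone demethylase, had 35.2 ± 5.58 CPM in HMU and 40.4 ± 1.05 CPM in PBS with no overlap and no call (edgeR adjusted p = 0.193). KDM3A was called lower with library sizes only (edgeR adjusted p = 0.0125) and on log2(TPM + 1) (limma adjusted p = 0.0133). RORA had 1.34 ± 0.626 CPM in HMU and 1.97 ± 0.279 CPM in PBS and was called lower without HMU replicate 3 (log2 fold change -0.93, edgeR adjusted p = 0.0261), while overlapping antisense genes make its counts uncertain.

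VLDLR, a lipoprotein receptor, had 6.39, 5.48 and 7.19 CPM in HMU libraries, against 10.3, 10.4 and 11.7 CPM in PBS libraries (log2 fold change -0.77 ± 0.12 SE, edgeR adjusted p = 0.00129). WSB1, a substrate adaptor of a ubiquitin ligase, rose to 106 ± 17.5 CPM in HMU, against 74.5 ± 4.16 CPM in PBS (log2 fold change 0.51 ± 0.12 SE, edgeR adjusted p = 0.0109). This rise ended with library sizes only, and without HMU replicate 1 or PBS replicate 3 (edgeR adjusted p = 0.0519 and 0.0517). It also ended on log2(TPM + 1) and log2(TPM + 0.1) (limma adjusted p = 0.259 and 0.262). ANKRD37 had 0.159 ± 0.0697 CPM in HMU and 0.238 ± 0.0717 CPM in PBS, and at this depth its change was not resolved (log2 fold change -0.59 ± 0.41 SE). The neighbouring UFSP2 overlaps it and held far more counts.

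Other genes of the pathway were counted by lists. Of 20 genes of the HIF machinery, 5 rose and 5 fell, shares near the 25.0% and 25.3% of all tested genes, with a median log2 fold change of -0.11. Scaled by library size alone, no gene of this list was called higher and 10 were called lower, where all tested genes gave 2442 higher and 7942 lower. ARNT, the partner of the alpha subunits, fell to 32.7 ± 6.37 CPM in HMU, against 47.8 ± 2.14 CPM in PBS (log2 fold change -0.55 ± 0.14 SE, edgeR adjusted p = 0.0121). HIF3A, which encodes a further alpha subunit, was low in both groups. It had 0.355 ± 0.055 CPM in HMU and 0.900 ± 0.287 CPM in PBS and was called lower (log2 fold change -1.34 ± 0.31 SE, edgeR adjusted p = 0.0089). VHL rose to 36.7 ± 2.38 CPM in HMU, against 27.1 ± 0.400 CPM in PBS (0.44 ± 0.075 SE as log2 fold change, with an edgeR adjusted p of 0.00214). It was not called with library sizes only (log2 fold change 0.16) or on the TPM and FPKM scales (limma adjusted p = 0.18 to 0.824). Elongin B, encoded by ELOB and a partner of VHL, and RACK1, a scaffold that can target HIF1A, had log2 fold changes of 0.59 ± 0.19 and 0.51 ± 0.096 SE. Neither was called with library sizes only or on the TPM and FPKM scales. The ELOB call also ended without HMU replicate 1 or any PBS library. LIMD1, which brings VHL to the hydroxylases, fell by 0.45 ± 0.088 SE on the log2 scale, and HIF1AN, the hydroxylase that blocks coactivator binding, was not called (edgeR adjusted p = 0.281). HIF1AN was called lower with library sizes only (edgeR adjusted p = 0.0025) and on log2(TPM + 1) (limma adjusted p = 0.00798). In this list 8 were lower without HMU replicate 2 and 3 without PBS replicate 3, beside 5487 and 3382 of all tested genes. Higher genes numbered 3, 2 and 2 without PBS replicates 1, 2 and 3, beside 3435, 3463 and 3395 of all tested genes.

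Of 22 genes of glycolysis and glucose use that hypoxia is known to raise, 9 rose and 4 fell (40.9% and 18.2%), beside 25.0% and 25.3% of all tested genes. Their median was 0.20, beside -0.0030 for all tested genes. Scaled by library size alone, 6 of the 22 were called higher and 7 lower, with a median of -0.079. On that scale all tested genes gave 2442 higher and 7942 lower, with a median of -0.284. SLC2A3, a glucose transporter, and SLC16A3, a lactate exporter, were at 96.5 ± 6.78 and 239 ± 42.7 CPM in HMU, against 42.4 ± 1.62 and 121 ± 2.58 CPM in PBS (log2 fold changes 1.19 ± 0.077 and 0.98 ± 0.12 SE). PPP1R3C, which directs a phosphatase to glycogen, fell to 6.42 ± 1.15 CPM in HMU, against 65.7 ± 5.03 CPM in PBS (log2 fold change -3.35 ± 0.14 SE, edgeR adjusted p = 1.66e-06). ENO2, an enolase, fell to 4.95 ± 0.412 CPM in HMU, against 9.79 ± 0.174 CPM in PBS.

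Of 33 tested genes among 36 other hypoxia targets, 14 rose and 8 fell (42.4% and 24.2%), beside 25.0% and 25.3% of all tested genes, with a median of 0.053. Scaled by library size alone, 9 of these targets were higher and 14 lower, where all tested genes gave 2442 higher and 7942 lower. PLAUR, the urokinase receptor, was at 67.99 ± 6.53 CPM in HMU and 9.06 ± 0.784 CPM in PBS (log2 fold change 2.91 ± 0.11 SE), and IGFBP3, which binds insulin-like growth factors, at 937 ± 56.9 CPM in HMU and 363 ± 18.9 CPM in PBS (log2 fold change 1.37 ± 0.074 SE). MIR210HG, the host transcript of a hypoxia-induced microRNA, fell to 2.11 ± 0.631 CPM in HMU, against 6.38 ± 0.186 CPM in PBS (log2 fold change -1.60 ± 0.19 SE, edgeR adjusted p = 0.000318). TFRC, the transferrin receptor, fell to 77.5 ± 14.8 CPM in HMU, against 150 ± 5.13 CPM in PBS (log2 fold change -0.95 ± 0.14 SE).

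A further list of 37 genes held paralogues of members and some genes related by name or role only, and is called paralogues below. Of 33 tested, 7 rose and 9 fell (21.2% and 27.3%), near the 25.0% and 25.3% of all tested genes, with a median of -0.091. Scaled by library size alone, 4 of the list were higher and 18 lower, where all tested genes gave 2442 higher and 7942 lower. MXD1, a relative of MXI1, rose to 98.6 ± 21.7 CPM in HMU, against 16.3 ± 0.749 CPM in PBS (log2 fold change 2.60 ± 0.16 SE). PDP1, the phosphatase that reverses the action of the PDK enzymes, is listed for that role and is not their paralogue. Its level rose to 76.6 ± 17.2 CPM in HMU, against 44.2 ± 1.41 CPM in PBS (log2 fold change 0.79 ± 0.16 SE, edgeR adjusted p = 0.00413), although not on log2(TPM + 1) (limma adjusted p = 0.158). ADM2, a relative of adrenomedullin, fell to 1.84 ± 0.258 CPM in HMU, against 7.32 ± 1.09 CPM in PBS. BNIPL, which is like BNIP3 in name but is not its paralogue, fell to 10.5 ± 0.361 CPM in HMU, against 21.6 ± 1.42 CPM in PBS.

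Receptors for VEGF and adrenomedullin were listed because their ligands are members. Of 7 tested 3 rose and 2 fell (42.9% and 28.6%), beside 25.0% and 25.3% of all tested genes. NRP2, a VEGF coreceptor, rose to 80.5 ± 13.2 CPM in HMU, against 26.2 ± 0.844 CPM in PBS (log2 fold change 1.62 ± 0.12 SE). NRP1, a related coreceptor, was at 35.0 ± 4.25 CPM in HMU and 28.8 ± 0.566 CPM in PBS. Its call (edgeR adjusted p = 0.0451) ended with library sizes only, with a replicate block (0.0573), and without any single library other than HMU replicate 2 (edgeR adjusted p = 0.11 to 0.142). CALCRL, the adrenomedullin receptor, fell to 0.285 ± 0.173 CPM in HMU, against 1.70 ± 0.377 CPM in PBS (log2 fold change -2.56 ± 0.37 SE). KDR, the main VEGF receptor, named after its values were seen, had 0 counts in all 3 HMU libraries, against 19, 20 and 21 counts in PBS libraries.

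**Figure D5:**
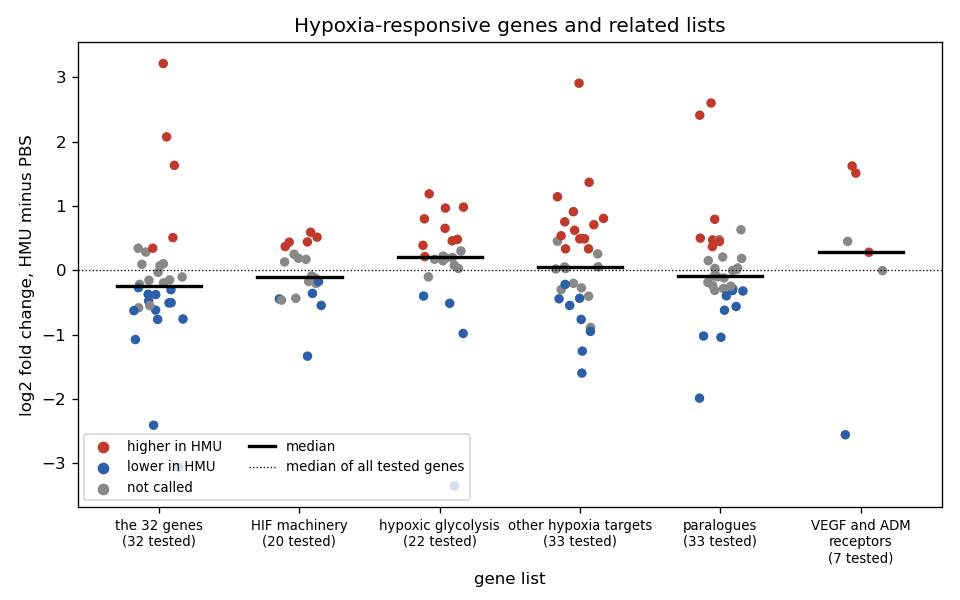
Log2 fold change, HMU minus PBS (y axis), of each tested gene in the set of 32 and in 5 related lists (x axis), coloured by call, with list medians as bars and the median of all tested genes as a dotted line. KDR, with 0 counts in all HMU libraries, is left out of the points but not of its list median. The set of 32 has its median at -0.25 and the glycolysis list at 0.20, and each of the 6 columns holds points on both sides of the dotted line.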

How the data were processed

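Gene expression was measured by stranded mRNA sequencing in 3 HMU and 3 PBS libraries. The deposited read counts are whole numbers per gene, named so in the file headers, with no scaling, since their totals differ; deposited TPM values sum to 1000000 per library and deposited FPKM values are scaled by length and library, per the file headers. The submitters' processing notes list HISAT2 2.1.0, StringTie 2.1.3b, Trimmomatic 0.38, FastQC 0.11.7 and the build GRCh38. The sources used here do not give the counting tool, its gene models or whether it used strand. Columns headed HMO were taken as the HMU samples by their numbers.

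Counts were fitted in R 4.3.3 with edgeR 4.0.16 (filterByExpr, TMM, glmQLFit with legacy set to false, glmQLFTest, group only), with Benjamini-Hochberg adjustment over 17990 genes and calls at an adjusted p below 0.05. Each standard error was obtained by dividing the log2 fold change by the square root of its F. Alternatives used DESeq2 1.42.0, limma 3.58.1, other scalings, filters and thresholds, a replicate block, each library left out and, added after seeing the data, the legacy fit. The tests were tried on simulated counts. Members and lists were chosen with earlier results of these data known. Members called with a log2 fold change of at least 1 in size, and 7 key genes, were given library by library, as were some others. From each further list the 2 largest called rises and falls with at least 1 CPM are named, with ARNT, VHL and HIF1AN. SLC2A1, HIF3A and KDR were added after their values were seen. P-values set the group difference against the spread between these replicates, which edgeR moderates across genes, and they cover this 1 line only.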

Additional observations from a re-analysis of the deposited data

How the results depend on the processing

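Over 53 members and named genes and 18 alternatives, 834 of 953 results kept their direction and their side of the threshold, 57 lost the call, 35 gained one and 27 changed sign. All 4 other scales turned CA9 (-0.192, -0.308, -0.334 and -0.169 with library sizes only, log2(TPM + 1), log2(TPM + 0.1) and log2(FPKM + 1)), FAM162A (-0.214, -0.331, -0.338 and -0.201), VEGFA (-0.179, -0.313, -0.316 and -0.185) and NRP1 (-0.0011, -0.12, -0.13 and -0.0051). The same 4 scales called KDM3A, AK4, BNIP3L, PLOD2, EGLN1 and HIF1AN lower, and on them all genes also gave more lower calls. Both TPM scales turned HIF1A (-0.0952 and -0.0958), EPAS1 (-0.138 and -0.139, with -0.0125 on FPKM) and ERO1A (-0.067 and -0.069). Leaving out each library in turn, BNIP3L ranged from -0.0871 to 0.037, LOX from -0.247 to 0.0585, CA9 from -0.121 to 0.236 and FAM162A from -0.025 to 0.144, and each changed sign without HMU replicate 2. On log2(TPM + 1) the median of all tested genes was -0.27.

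For library sizes only, log2(TPM + 1), log2(TPM + 0.1) and log2(FPKM + 1) in that order, all genes gave 2442, 1975, 1965 and 2441 higher and 7942, 9153, 9126 and 7612 lower, and the members' median was -0.53, -0.55, -0.65 and -0.39. The members higher were 3, 3, 3 and 4, and lower 19, 23, 22 and 19. HIF machinery gave 0 higher in each by edgeR or limma (1, 0, 0 and 1 at an unadjusted p under 0.05) and 10, 12, 12 and 10 lower, and glycolysis gave 4 higher on either TPM scale and 7, 12, 12 and 7 lower. Other hypoxia targets gave 9, 6, 6 and 8 higher and 14, 15, 16 and 13 lower, and paralogues 4, 2, 2 and 4 higher and 18, 19, 19 and 17 lower. Receptors gave 1 higher on the last 3 scales, and 1 lower with a filter of 1 CPM in 3 libraries. At an adjusted p under 0.01, 3045 of all genes were higher and 2967 lower, 3 members were higher and 11 lower, and 2 genes of the HIF machinery were higher and 2 lower.

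Leaving out each library in turn gave 3 to 8 members higher and 11 to 17 lower, with a median of -0.285 to -0.168 and 8 higher without HMU replicate 2, and gave 2 to 6 higher and 3 to 8 lower genes of the HIF machinery. All genes ranged from 3395 to 5459 higher and from 3382 to 5487 lower. The cause of these shifts was not tested. The legacy fit, chosen after seeing the data, left 5 members higher and 14 lower.

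No pairing by replicate number was visible. Deviations of same-numbered libraries correlated at -0.019, 0.035 and 0.048, beside -0.060 to 0.026 for libraries of different numbers. With 3 libraries per group these values cannot exclude a pairing. A replicate block left 5 members higher and 14 lower. At this depth 3 counts equal 0.0455 to 0.0467 CPM before TMM scaling. ANKRD37 was low but above this in every library, with 5 to 22 counts and 0.0825 to 0.311 CPM after TMM scaling.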
